A study of Caenorhabditis elegans with 2 samples.

Results

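A set of 10 short secreted-peptide genes of the nematode epidermis, 7 of the nlp class and 3 of the cnc (caenacin) class, was followed on 2 Affymetrix arrays of whole Caenorhabditis elegans. The members were the genes nlp-25, nlp-27, nlp-28, nlp-29, nlp-30, nlp-31, nlp-34, cnc-1, cnc-2 and cnc-4, and every probe set that the platform annotation gives to exactly 1 of them was taken. This gave 1 probe set for each of 9 genes, 6 nlp and 3 cnc, out of 17118 genes with a probe set of their own. No such probe set was given to nlp-34, which has no value here. One array held total RNA of animals fed Escherichia coli HT115 producing the imp-2 double-stranded RNA; imp-2 is an intramembrane protease gene related to the presenilins. The other held total RNA of animals fed the same bacterial strain carrying green fluorescent protein (GFP) double-stranded RNA, the control. The sources used here do not give worm strain, age or culture conditions, and the label's mention of a mammalian brain region beside the whole animal cannot describe a nematode. With 1 array in each group, the differences have no replicate check and no test was possible.

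The epidermis of the nematode secretes the cuticle and is the first tissue that a skin-penetrating fungus or a puncture wound damages. It answers by making small glycine-rich and tyrosine-rich peptides of the nlp and caenacin classes, whose genes arose by local duplication and stand side by side on a chromosome. The nlp-29 group is known to be switched on through an epidermal p38 MAP kinase cascade, and cnc-2 through a TGF-beta signal from neurons to the epidermis. In spite of the shared name, most other nlp genes encode neuropeptides.

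The probe set intensities are in arbitrary units, and both arrays had the same mean after trimming 2% at each end (150.04). Values were floored at each array's median over its non-control probe sets, 35.3 on the imp-2 RNAi array and 30.1 on the GFP RNAi array. A fold against a floored value is a lower bound. The target gene did not check the labels: 1 imp-2 probe set read 1754 on the imp-2 RNAi array and 2318 on the GFP RNAi array, and the other read 2517 on the imp-2 RNAi array and 510 on the GFP RNAi array. Every direction below is therefore one between the arrays as labelled. Log2 ratios are imp-2 RNAi over GFP RNAi, centred on the median of the 8553 genes that counted as expressed (mean log2 intensity above 5.01). The spread of log2 ratios between expressed probe sets of the same gene was 0.37 over 2489 pairs, which covers disagreement within these arrays and nothing about cultures.

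All 9 measured peptide genes read brighter on the imp-2 RNAi array, and 8 of them were at least 2-fold higher. The nlp-29 gene, the usual reporter of epidermal defence in this animal, read 1339 on the imp-2 RNAi array and 201 on the GFP RNAi array, which is 6.61-fold higher. Its neighbour nlp-30 read 669 on the imp-2 RNAi array and 108 on the GFP RNAi array, or 6.15-fold higher. For nlp-31, whose peptide is known to have antimicrobial activity in vitro, the reading was 809 on the imp-2 RNAi array and 192 on the GFP RNAi array, 4.19-fold higher. These 3 genes were well above both floors on both arrays, and each ratio was more than 5 times the probe set spread.

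The other 2 measured genes of the same block differed less. The nlp-28 probe set read 1075 on the imp-2 RNAi array and 382 on the GFP RNAi array, which is 2.80-fold higher. The nlp-27 probe set read 478 on the imp-2 RNAi array and 308 on the GFP RNAi array. That ratio, 1.54-fold, was the only one among the 9 under 2-fold, and at 0.62 on the log2 scale it was less than 2 probe set spreads. The nlp-25 gene, which lies elsewhere on the chromosome, read 192 on the imp-2 RNAi array and 21.2 on the GFP RNAi array, under the floor there, so it was at least 6.32-fold higher.

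Of the caenacin genes, cnc-4 had the highest ratio among the 6 peptide genes above both floors; the 3 bounds cannot be ranked against it. It read 1324 on the imp-2 RNAi array and 113 on the GFP RNAi array, 11.6-fold higher (log2 ratio 3.54). The cnc-2 gene, the known target of the TGF-beta signal, read 203 on the imp-2 RNAi array and 26.98 on the GFP RNAi array, just under the floor, which makes it at least 6.69-fold higher. The cnc-1 gene read 87.8 on the imp-2 RNAi array and 0.548 on the GFP RNAi array. Its bound was at least 2.89-fold, and it was the 1 measured gene of the 9 that did not count as expressed, since its mean log2 intensity was 2.79. Both cnc-1 and cnc-2, like nlp-25, were therefore bright on the imp-2 RNAi array only.

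**Figure D1:**
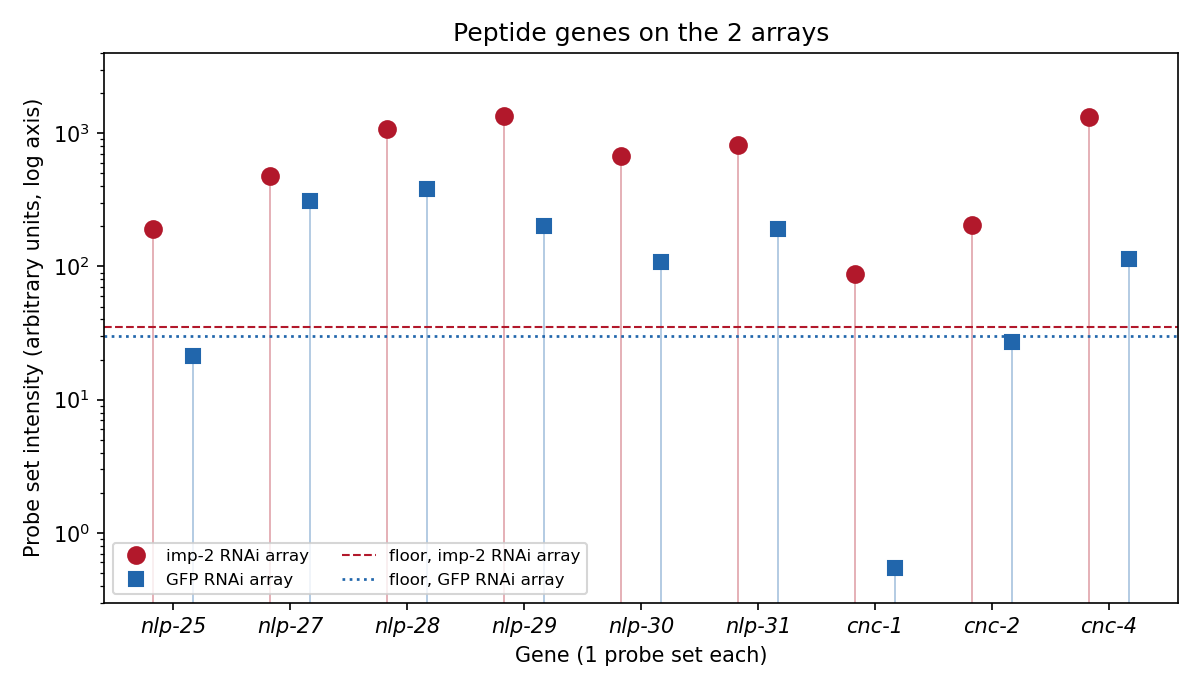
Probe set intensity (arbitrary units, log axis) of the 9 measured peptide genes on the imp-2 RNAi array (red circles) and the GFP RNAi array (blue squares), 1 probe set and 1 array per point, with each array's floor as a horizontal line. Every circle lies above its square, and the GFP RNAi values of nlp-25, cnc-1 and cnc-2 lie under the floor of 30.1.

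The count of 8 among 9 stands beside 4.97% of the 17118 genes with a probe set of their own that were at least 2-fold higher with bounds included. That total holds many genes under the floor on both arrays, which cannot reach 2-fold, and none of the 9 was such a gene. Among the 8553 expressed genes the share was 9.72%. Of the 6 peptide genes above the floor on both arrays, 5 were at least 2-fold higher, against 8.69% of the 7960 genes above both floors. Of those 6, 4 (cnc-4, nlp-29, nlp-30 and nlp-31) were at least 4-fold higher, against 0.641% of the same genes. The median log2 ratio of the 6 was 2.34, and that of all 7960 genes was −0.01. With the 3 bounds at their bound, the median over the 9 was 2.62. A gene under the GFP RNAi floor and above the other floor can only lean to the imp-2 RNAi side. Its bound reflects only how bright it was on the imp-2 RNAi array. The 3 peptide genes of this kind had bounds past 2-fold, as had 24.3% of 650 such genes, and nothing is drawn from that. They are part of the 8 and of the median over the 9, while the counts over the 6 leave them out.

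Calls were fewer among genes as bright as these. Among the 2083 genes above both floors whose mean log2 intensity lay between that of nlp-30 and that of nlp-28, 3.98% were at least 2-fold higher. By rank of ratio among the 7960 genes, cnc-4 was number 3, nlp-29 number 12, nlp-30 number 17, nlp-31 number 45, nlp-28 number 209 and nlp-27 number 1296.

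**Figure D2:**
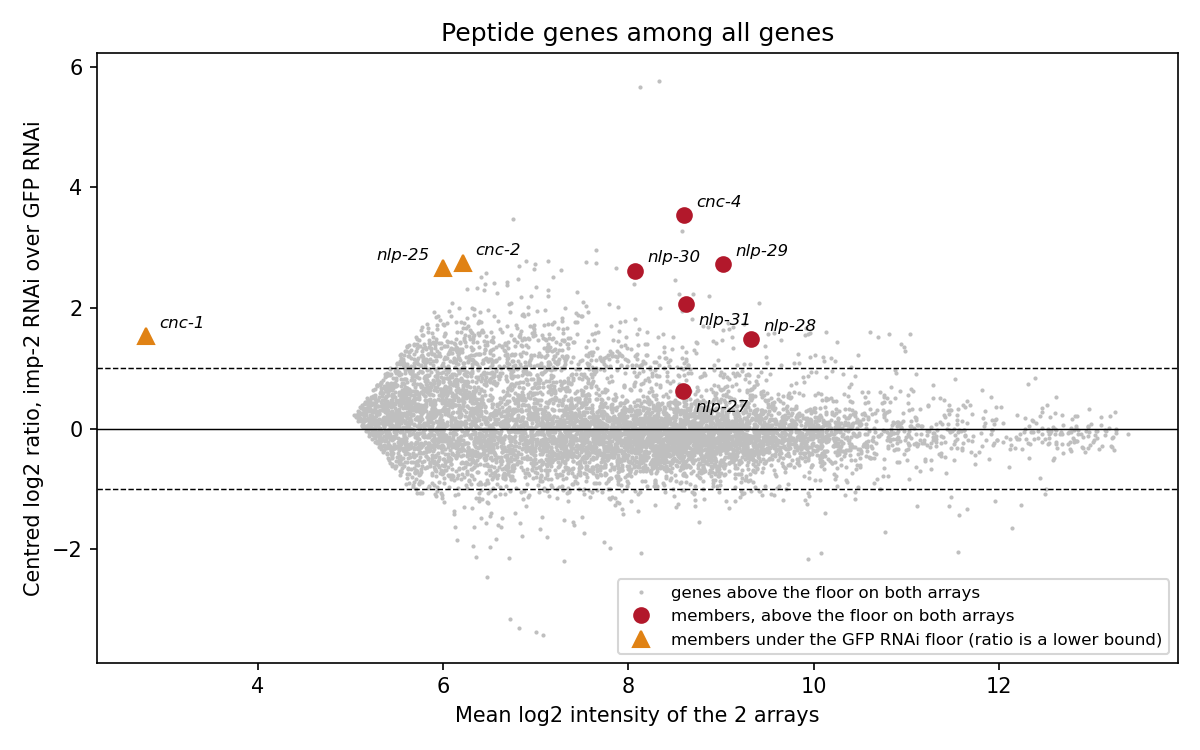
Centred log2 ratio (imp-2 RNAi over GFP RNAi) against the mean log2 intensity of the 2 arrays for the 7960 genes above both floors (grey), the 6 peptide genes above both floors (red circles) and the 3 with a lower bound (orange triangles). Dashed lines mark 2-fold. The peptide genes cnc-4 at 3.54 and nlp-29 at 2.73 are among the highest ratios, and nlp-27 at 0.62 lies inside the 2-fold lines. The grey points of srlf-34 (5.77) and Y41C4A.32 (5.67) lie higher at a similar brightness.

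Of the 9 probe sets, 7 carry the suffix _x_at, with which Affymetrix marks sets whose probes can also match other transcripts. These are the sets of nlp-27 to nlp-31, cnc-1 and cnc-2. Neighbouring paralogs are therefore not told apart with certainty, and the signal of 1 gene in the nlp-29 block may contain that of another. Among all genes above both floors that were read by such a set, 10.1% were at least 2-fold higher (43 of 425), and their median log2 ratio was 0.05. The probe sets of cnc-4 and nlp-25 carry no such suffix, and these gave 11.6-fold and at least 6.32-fold.

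Within the nlp-29 block the log2 ratio ran from 0.62 to 2.73. In chromosome order the genes run nlp-34, nlp-31, nlp-30, nlp-29, nlp-28 and nlp-27 on chromosome V, with no other protein-coding gene between them. The log2 ratio was 2.07 at nlp-31, 2.62 at nlp-30 and 2.73 at nlp-29, then 1.48 at nlp-28 and 0.62 at nlp-27. To judge such gaps, the root mean square difference between 2 probe sets of the same gene was 0.53, and 95% of those differences were under 1.08. The gap of 0.11 between nlp-29 and nlp-30 was well inside this, and those of 0.55 between nlp-30 and nlp-31, 0.58 between nlp-31 and nlp-28 and 0.86 between nlp-28 and nlp-27 were under 1.08 as well. The gaps of 1.24 between nlp-29 and nlp-28 and of 2.10 between nlp-29 and nlp-27 were larger. Neighbours in this order thus mostly do not differ beyond the probe set disagreement. The larger gaps were picked after the values were seen, while the value of 1.08 is for pairs not so picked. They are therefore a description only.

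Few genes just outside the block could be read. Of the 5 protein-coding genes on each side, 8 were under the floor on both arrays, among them the receptor-class genes str-82, str-83 and srx-62. The 2 that were read above it were the cytochrome P450 genes cyp-34A8, with 127 on the imp-2 RNAi array and 67.8 on the GFP RNAi array, and cyp-34A9, with 91.8 on the imp-2 RNAi array and 39.3 on the GFP RNAi array. Their log2 ratios of 0.90 and 1.21 lay below those of the 4 highest peptide genes of the block and above that of nlp-27. Of the 2, cyp-34A9 was at least 2-fold higher, against 9.72% of all expressed genes.

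The caenacin block lies on the same chromosome. Its order is cnc-11, cnc-1, cnc-5, cnc-4, cnc-3 and cnc-2, and of its genes outside the 3 members only cnc-3 could be read above a floor. Between cnc-4 and cnc-2 lies cnc-3, which read 56.2 on the imp-2 RNAi array and 74.5 on the GFP RNAi array (log2 ratio −0.42), although it too is read by an _x_at set. Between cnc-1 and cnc-4 lies cnc-5, which was under the floor on both arrays with 4.84 on the imp-2 RNAi array and 10.5 on the GFP RNAi array. No probe set was given to cnc-11 alone. Of 5 expressed flanking genes, ges-1, a gut esterase gene, and hacd-1 were at least 2-fold higher, with log2 ratios of 1.44 and 1.55, and the others lay between 0.25 and 0.68. Over all expressed genes, 9.72% were at least 2-fold higher.

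**Figure D3:**
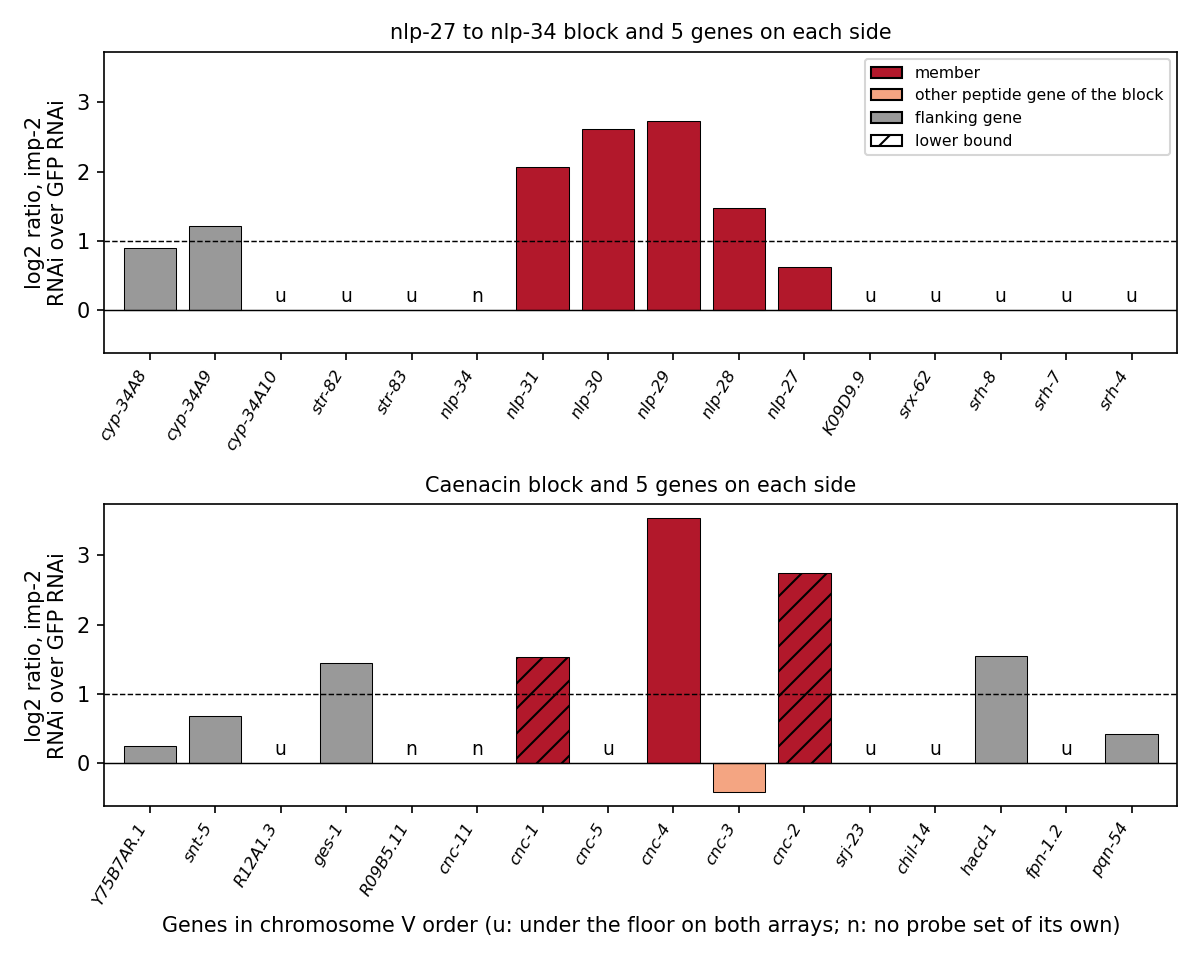
Centred log2 ratio (imp-2 RNAi over GFP RNAi) of each gene in chromosome V order for the nlp-29 block (top) and the caenacin block (bottom) with 5 protein-coding genes on each side, 1 array per group. Members are red, other peptide genes of a block orange, flanking genes grey and lower bounds hatched; u marks genes under the floor on both arrays and n genes with no probe set of their own, and the dashed line marks 2-fold. The nlp-29 block peaks at nlp-29 (2.73), and in the caenacin block cnc-3 (−0.42) stands between cnc-4 (3.54) and cnc-2 (at least 2.74).

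Outside the 9 genes, relatives in the same peptide family read above both floors had log2 ratios of at most 1.40. Of the 6 peptide genes above both floors, all but nlp-27 were higher than that, but nlp-28 (1.48) by less than the probe set spread of 0.37. Relatives with only a bound are not part of this comparison. Of 9 further genes of nlp-24 to nlp-33 and the cnc class with a probe set of their own, 1 was at least 2-fold higher, 4 read above both floors lay within 2-fold, 2 (nlp-32 and cnc-6) had only lower bounds under 2-fold, and 2 (nlp-24 and cnc-5) were under the floor on both arrays. The 1 higher gene was cnc-7, which read 85.8 on the imp-2 RNAi array and 32.2 on the GFP RNAi array, just above its floor, 2.64-fold higher, and the bound on its second set was at least 2.02-fold. The nlp-26 gene, 2 places from nlp-25 on the chromosome, read 124 on the imp-2 RNAi array and 80.2 on the GFP RNAi array (log2 ratio 0.62).

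The remaining family members were close between the arrays or near the floors. The nlp-33 gene read 281 on the imp-2 RNAi array and 208 on the GFP RNAi array, a log2 ratio of 0.43. The cnc-8 gene read 233 on the imp-2 RNAi array and 157 on the GFP RNAi array, a log2 ratio of 0.56. The nlp-32 gene read 42.5 on the imp-2 RNAi array and 3.98 on the GFP RNAi array, and cnc-6 read 49.1 on the imp-2 RNAi array and 2.44 on the GFP RNAi array, so both were far under the GFP RNAi floor. Their bounds of at least 1.40-fold and 1.62-fold depend on where the floor is put, and do not place them within 2-fold. The lowest log2 ratio of the family was that of cnc-3. Of the 16 family genes above at least 1 floor, the 9 members included, 15 had a log2 ratio above 0, and cnc-3 was the exception. Those under the GFP RNAi floor alone (nlp-25, cnc-1, cnc-2, nlp-32 and cnc-6) could only come out above 0, so their sign adds nothing. The median log2 ratio of all 7960 genes above both floors was −0.01. The members were chosen with earlier results known, so the contrast between them and their relatives is a description.

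Expressed genes listed for the p38 MAP kinase pathway were mostly within 2-fold, as were most expressed genes. The list was not limited to genes that act on nlp-29. Of 22 genes listed for the epidermal p38 MAP kinase pathway, 15 counted as expressed, of which 1 passed 2-fold upward and 1 downward, and their median log2 ratio was 0.19. Over all expressed genes the shares were 9.72% higher and 2.27% lower, with a median of 0 by the centring. The same shares stand beside the counts of expressed genes in the lists and markers below. The higher gene was tir-1, the adaptor at the head of the kinase cascade, which read 193 on the imp-2 RNAi array and 73.5 on the GFP RNAi array (2.61-fold, log2 ratio 1.38), and 0.79 on its other probe set. The lower gene was atf-7, a transcription factor downstream of the kinases, which read 478 on the imp-2 RNAi array and 971 on the GFP RNAi array (log2 ratio −1.03), but −0.28 and −0.29 on its other probe sets. This call was lost under 4 of the 7 alternatives, in 1 of which no atf-7 probe set was left.

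Closest to the threshold in this pathway was dcar-1, the receptor that senses cuticle damage, with 85.2 on the imp-2 RNAi array and 42.8 on the GFP RNAi array. Its log2 ratios were 0.98 and 0.99 on its 2 probe sets. The kinase-related gene nipi-3 had log2 ratios of 0.64 and 0.63 on its expressed sets, and the kinase kinase gene sek-1 had 0.60 and 0.42. The p38 kinase gene pmk-1 was dim, with 26.996 on the imp-2 RNAi array, under its floor, and 43.7 on the GFP RNAi array. The transporter gene snf-12 was under the floor on both arrays, and so was the G protein gene gpa-12. The STAT-like factor gene sta-2 read 38.6 on the imp-2 RNAi array and 18.9 on the GFP RNAi array, the second under its floor. The GATA factor gene elt-3, which acts in epidermal expression of these peptides, read 123 on the imp-2 RNAi array and 108 on the GFP RNAi array (log2 ratio 0.17).

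Of 10 genes listed for the TGF-beta pathway, 8 counted as expressed, and the list was not limited to genes that act on cnc-2. Among the 8, 7 lay within 2-fold above both floors and sma-10 had only a bound. Most expressed genes lay within 2-fold too. The median log2 ratio of the 8 was 0.74. The highest of the list were the SMAD gene sma-4 (116 on the imp-2 RNAi array and 65.7 on the GFP RNAi array, log2 ratio 0.81), the receptor gene sma-6 (75.0 on the imp-2 RNAi array and 43.1 on the GFP RNAi array, 0.79), lon-1 (0.77) and sma-10 (0.77, as a bound). The SMAD gene sma-3, required for cnc-2 expression, read 52.9 on the imp-2 RNAi array and 31.97 on the GFP RNAi array, a log2 ratio of 0.72. The ligand gene dbl-1 was under the floor on both arrays.

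Another 3 lists follow known triggers of nlp-29. Loss of the collagens that form the circular furrows of the cuticle raises it, and of those 6 genes dpy-7 alone counted as expressed, at 49.1 on the imp-2 RNAi array and 33.6 on the GFP RNAi array (log2 ratio 0.54). The others with a probe set were dim: dpy-3 and dpy-8 were at least 1.69-fold and 1.70-fold higher, and dpy-2 and dpy-9 were under the floor on both arrays. High salt also raises nlp-29. Among 6 expressed genes of the osmotic response, the patched-related gene ptr-23 was 2.77-fold higher, 3 lay within 2-fold above both floors, and osm-7 (at least 1.70-fold higher) and gpdh-1 had only bounds. The median log2 ratio of the 6 was 0.41, and over all expressed genes 9.72% were at least 2-fold higher. The other ptr-23 probe sets had log2 ratios of 0.23, 1.06 and 0.97. The salt-induced glycerol synthesis gene gpdh-1 was near the floors, with 36.1 on the imp-2 RNAi array and 28.9 on the GFP RNAi array. All 7 expressed genes of wound repair and microtubules lay within 2-fold, as did most expressed genes. The median of the 7 was 0.16, and the kinase gene dlk-1 was highest at 0.91.

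Other secreted antimicrobial peptide genes differed in both directions. Among the 6 that counted as expressed, 2 passed 2-fold upward and 1 downward, and their median log2 ratio was 0.36. Over all expressed genes, 9.72% passed upward and 2.27% downward. The higher peptide genes were fip-5, with 237 on the imp-2 RNAi array and 45.2 on the GFP RNAi array (5.21-fold), and the saposin-like gene spp-8, with 118 on the imp-2 RNAi array and 30.6 on the GFP RNAi array, the second just above its floor (3.82-fold). The lower one was the defensin-like gene abf-1, with 14.6 on the imp-2 RNAi array, under its floor, and 137 on the GFP RNAi array, which makes it at least 3.92-fold lower. Both fip-1 and abf-2, which did not count as expressed, had bounds of at least 3.81-fold and 2.01-fold higher. In the opposite direction fip-3, also not counted as expressed, read 7.99 on the imp-2 RNAi array and 67.8 on the GFP RNAi array, at least 1.93-fold lower.

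The neuropeptide genes that share the nlp name did not share the ratio. Of 30 expressed nlp genes outside nlp-24 to nlp-34, 1 passed 2-fold upward and none downward, and their median log2 ratio was −0.02. Over all expressed genes, 9.72% passed 2-fold upward and 2.27% downward. The nlp gene that passed was nlp-16, at 1.29 on 1 probe set and 0.06 on the other. The lowest of the 30 was nlp-17 at −0.96. Of 21 expressed FMRFamide-like (flp) neuropeptide genes, 20 lay within 2-fold above both floors, with a median of 0.11 over the 21. The other, flp-17, was under the imp-2 RNAi floor and at least 1.66-fold lower, and with intensity-dependent centring 1 flp gene passed 2-fold downward.

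**Figure D4:**
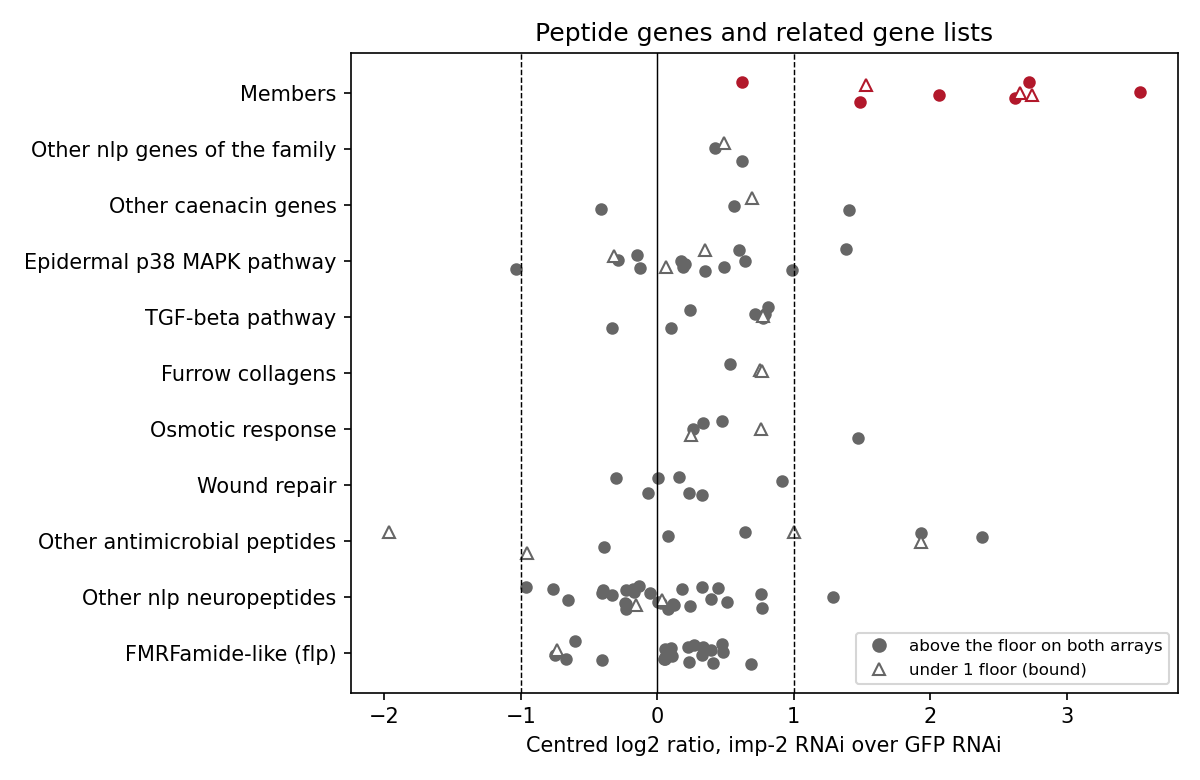
Centred log2 ratio (imp-2 RNAi over GFP RNAi) of each gene in the lists, 1 point per gene, with open triangles where 1 array was under its floor and the ratio is a bound; genes under both floors are not drawn. Of the 9 members, 8 lie right of the dashed 2-fold line at 1. The pathway and neuropeptide lists lie mostly between the 2 dashed lines, as would most expressed genes.

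Tissue markers give the setting of these values, and their part in the peptide genes' ratios was not tested. In RNA of whole animals, a difference in the number of cells of a type and a difference in RNA per cell cannot be told apart. Of 11 measured epidermis markers, 8 counted as expressed. Their median log2 ratio was 0.12, and 1 was at least 2-fold higher, the collagen gene rol-6 (91.6 on the imp-2 RNAi array and 19.7 on the GFP RNAi array, under its floor). Over all expressed genes, 9.72% were at least 2-fold higher. The summed intensity of the 11 markers was 2367 on the imp-2 RNAi array and 2236 on the GFP RNAi array. Most of each sum was the adult collagen gene col-19, which read 1264 on the imp-2 RNAi array and 1194 on the GFP RNAi array. The sums therefore say little about the other markers. Among these, nhr-25 and wrt-10 (not counted as expressed) had bounds of at least 1.71-fold and 1.70-fold higher. The dpy-7 gene was 1.45-fold higher, and nhr-23 was 1.38-fold lower. The epidermal factor gene lin-26 read 473 on the imp-2 RNAi array and 570 on the GFP RNAi array, and the molting genes mlt-10 and qua-1 were under both floors.

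Intestine markers stood higher on the imp-2 RNAi array. Among 7 expressed ones, 3 passed 2-fold upward (elt-7 only as a bound), against 9.72% of all expressed genes. The median log2 ratio of the 7 was 0.93. The summed intensity of the 8 measured was 14793 on the imp-2 RNAi array and 10052 on the GFP RNAi array. Most of each sum was vit-6, asp-1 and vit-2, so the sums say little about the other markers. The vit-6 gene had a log2 ratio of 0.74, but 0.28 on its other probe set. No expressed marker of neurons (7), body wall muscle (4), pharynx (3), germ line (5) or sperm (2) was 2-fold apart, with median log2 ratios of −0.24 for neurons, 0.20 for muscle, 0.36 for pharynx, −0.14 for germ line and 0.72 for sperm, where spe-11 lay just under the threshold with 140 on the imp-2 RNAi array and 69.6 on the GFP RNAi array. The male tail markers mab-3 and clec-207 did not count as expressed, and mab-3 was under the floor on both arrays. The clec-207 gene read 3.21 on the imp-2 RNAi array, under its floor, and 76.1 on the GFP RNAi array. That makes it at least 2.17-fold lower. The ratio of the 3′ to the 5′ control probe sets, a measure of RNA integrity, differed in direction between controls. For actin it was 2.31 on the imp-2 RNAi array and 3.64 on the GFP RNAi array, and for Gapdh 1.12 and 1.37 in the same order. For ubiquitin it was 16.7 on the imp-2 RNAi array and 12.1 on the GFP RNAi array, and for catalase 8.03 and 6.49. These ratios do not rank the arrays by integrity.

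The genes whose pair of log2 intensities lay nearest to that of nlp-29 were tep-1 (distance 0.42), lro-1 (0.57), hsp-70 (0.69), cdr-4 (0.72) and far-3 (0.73), with ratios between 3.37-fold and 9.67-fold. Nearest to cnc-4 were far-3 (0.19), ckb-2 (0.76), nlp-29 itself (0.83), T19B10.2 (0.92) and lro-1 (0.93). The distance is Euclidean over 2 arrays, and brightness also depends on the probes, so likeness here says little beyond a similar ratio at a similar signal.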

How the data were processed

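The authors deposited 1 summarised intensity per probe set and array on a linear scale; the sources used here do not give the summarisation, background correction, scaling or detection calls. Groups were taken from the labels' descriptions of the fed RNA, 1 array each, so there are no p-values, and precision is limited by the number of arrays. Of 22548 probe sets that are not controls, the 20766 that the platform annotation gives to 1 gene were used, with symbols and gene order from the WBcel235 gene table and no coordinates, since the array's build is not given. For a gene with several sets, the one with the highest mean log2 intensity was used. Intensities were floored at each array's median and log2 ratios were shifted by 0.01 to centre expressed genes. The highest of 32 controls for absent transcripts read 14.4 on the imp-2 RNAi array and 15.3 on the GFP RNAi array. Genes were called at 2-fold. The members and gene lists were chosen with earlier results of these data known. The text names every member and every other nlp-24 to nlp-33 or cnc gene, and of each other list those past 2-fold or up to 4 furthest from 0; further genes of these lists, the flanking genes and the markers named were picked after their values were seen. Steps were tested on simulated data. Python 3.11.15, pandas 2.3.3 and statsmodels 0.14.6 were used. Alternatives were quantile normalization, no floor with 16 added, a lower floor at the absent controls, the mean over probe sets, no sets that can match several transcripts, intensity-dependent centring and no centring.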

Additional observations from a re-analysis of the deposited data

How the results depend on the processing

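Under 6 of the 7 alternatives the count of 8 among 9 peptide genes at least 2-fold higher stayed as it was. With multiply matching probe sets left out, nlp-25 and cnc-4 alone were left, and both of these 2 were higher, with a median log2 ratio of 3.09. Over the settings, nlp-29 lay between 2.64 and 2.83, cnc-4 between 3.37 and 3.64 and nlp-27 between 0.60 and 0.73. The bounds depend most on the floor: with the lower floor the log2 ratio was 2.52 for cnc-1, 3.17 for nlp-25, 1.47 for nlp-32 and 1.68 for cnc-6, which puts the last 2 past 2-fold, and without a floor it was 2.64, 2.48, 1.54 and 1.81 in the same order. Of all expressed genes past 2-fold, 81.1% were higher on the imp-2 RNAi array, 75.4% after quantile normalization and 72.6% with intensity-dependent centring.

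Counts of list genes at least 2-fold higher also changed. With multiply matching sets left out there were 0 other caenacin genes, 0 of the p38 pathway, 0 osmotic response genes and 1 other antimicrobial peptide gene. With the mean over probe sets there were 0 osmotic response genes and 0 other nlp genes, without a floor 0 other nlp genes, and with the lower floor 2 osmotic response genes. Downward, the 1 call of the p38 pathway (atf-7) was lost with quantile normalization, the mean over probe sets, multiply matching sets left out or intensity-dependent centring. There was 1 other nlp gene at least 2-fold lower, against 0 as reported, with quantile normalization and with intensity-dependent centring, and 1 flp gene, also against 0, with intensity-dependent centring alone. The median of the TGF-beta list was between 0.47 and 0.75 and that of the flp list between −0.03 and 0.14. Leaving out an array was not possible with 1 per group. No paired analysis was possible because each group has 1 array. Signal near the floors limits what can be read for cnc-1, cnc-6 and nlp-32.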
